A study of Homo sapiens with 16 samples.

Results

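The 50 interferon-induced antiviral effector genes were followed by their gene names in a table of raw counts per gene, where each of them has 1 of the 58721 rows. The counts came from 16 libraries of 3′ RNA sequencing, a method that reads the ends of polyadenylated transcripts, in 2 human bladder cancer cell lines. RT112 is a line of the luminal papillary subtype and SCaBER a squamous line of the basal subtype. Each line was transfected with 10 nM of 1 of 4 small interfering RNAs (siRNAs): siFOXA1.1 or siFOXA1.2, which target FOXA1, or siControl.1 or siControl.2, which serve as controls, with 2 libraries of each siRNA and line. All groups, controls included, received a siRNA and the same lipid transfection reagent, and there is no untransfected group among the samples used here. RT112 grew in RPMI and SCaBER in DMEM, both with serum, so line and medium cannot be told apart, and each subtype is represented by 1 line. The labels name the 2 libraries of a siRNA experiment batch replicates and do not say whether they came from separate cultures, so p-values measure the spread between these libraries, which may be technical.

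Interferons are secreted proteins that cells make on sensing viral nucleic acid. Type I and type III interferons bind receptors whose kinases activate transcription factors, among them STAT2 with its partner IRF9, that bind interferon-stimulated response elements (ISREs) in the promoters of many genes. The products of these genes block viral entry, RNA translation, genome replication or release, and many of them are kept low in resting epithelial cells. The question put to these data was which effectors rose with siFOXA1.1, which did not, how high each stood in either line beforehand, and what siFOXA1.2 and the controls showed.

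Promoters were available for 42 of the 50 genes, in RefSeq windows of 300 bases (250 before to 50 after a transcription start, GRCh38.p14), and some genes have several such windows. The ISRE core, which is GAAA, any 2 bases and GAAA again, searched on both strands, lay in at least 1 window of 31 of these 42 genes (73.8%, 95% Wilson interval 58.9 to 84.7%). It lay in 3.57% of all 35116 windows and in 4.38% of genes. The gamma-activated site core TTCNNNGAA, a STAT dimer motif that can overlap the ISRE, lay in 11 of the 42 genes and in 9.38% of all genes. The 11 genes with a window but no ISRE core were CMPK2, HELZ2, HERC6, IFI35, MOV10, SAMD9L, SP110, TDRD7, TRIM25, UBE2L6 and XAF1.

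The windows of 6 genes are shown, the first listed for each, with ISRE cores in capitals, so that genes of different response can be read side by side. IFI27 (chr14:94110486-94110785, plus strand), IFI44L (chr1:78620198-78620497, plus strand) and IFI44 (chr1:78649539-78649838, plus strand) had the largest mean of the fitted rises among genes called higher with siFOXA1.1 in both lines, an order that for IFI27 and IFI44 rests on RT112 controls at or near 0. EPSTI1 (chr13:42992192-42992491, minus strand) was called in RT112 alone, MX1 (chr21:41420308-41420607, plus strand) in SCaBER alone, and IFIT5 (chr10:89414318-89414617, plus strand) in neither line. IFI27 has 2 windows in the table, IFI44 2 and MX1 3.
IFI27: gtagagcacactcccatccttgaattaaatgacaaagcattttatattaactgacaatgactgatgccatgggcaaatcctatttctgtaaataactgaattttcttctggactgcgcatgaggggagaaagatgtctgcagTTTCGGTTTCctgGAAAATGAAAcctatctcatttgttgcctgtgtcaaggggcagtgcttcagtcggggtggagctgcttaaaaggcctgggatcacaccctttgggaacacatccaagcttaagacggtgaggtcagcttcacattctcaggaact
IFI44L: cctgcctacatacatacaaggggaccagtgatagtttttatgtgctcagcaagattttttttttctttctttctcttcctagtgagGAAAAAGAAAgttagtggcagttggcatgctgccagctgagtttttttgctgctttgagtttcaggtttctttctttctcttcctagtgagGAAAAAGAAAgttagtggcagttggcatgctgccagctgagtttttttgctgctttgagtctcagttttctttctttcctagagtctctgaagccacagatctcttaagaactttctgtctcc
IFI44: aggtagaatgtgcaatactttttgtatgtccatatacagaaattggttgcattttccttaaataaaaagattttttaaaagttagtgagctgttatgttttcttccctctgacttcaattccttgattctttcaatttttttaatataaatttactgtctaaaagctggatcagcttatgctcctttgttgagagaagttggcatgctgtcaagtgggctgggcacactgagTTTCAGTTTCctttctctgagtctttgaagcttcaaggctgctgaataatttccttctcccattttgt
EPSTI1: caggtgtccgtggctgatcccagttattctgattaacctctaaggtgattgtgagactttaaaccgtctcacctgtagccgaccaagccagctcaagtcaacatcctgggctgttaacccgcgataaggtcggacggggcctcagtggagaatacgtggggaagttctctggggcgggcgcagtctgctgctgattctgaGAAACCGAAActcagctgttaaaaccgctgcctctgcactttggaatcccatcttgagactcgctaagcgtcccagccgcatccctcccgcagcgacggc
MX1: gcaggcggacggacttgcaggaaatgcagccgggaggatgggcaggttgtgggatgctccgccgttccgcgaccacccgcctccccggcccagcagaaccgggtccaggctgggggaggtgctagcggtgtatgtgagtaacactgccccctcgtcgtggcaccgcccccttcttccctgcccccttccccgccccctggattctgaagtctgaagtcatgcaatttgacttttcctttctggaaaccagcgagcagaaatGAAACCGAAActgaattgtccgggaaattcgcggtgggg
IFIT5: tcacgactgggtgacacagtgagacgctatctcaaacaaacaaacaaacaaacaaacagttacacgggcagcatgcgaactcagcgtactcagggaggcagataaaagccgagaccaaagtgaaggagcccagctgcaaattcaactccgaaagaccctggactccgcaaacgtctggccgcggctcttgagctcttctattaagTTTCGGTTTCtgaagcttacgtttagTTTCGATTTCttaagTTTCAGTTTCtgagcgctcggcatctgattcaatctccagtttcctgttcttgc

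IFIT5, which was not called in either line, carries 3 ISRE cores in this window, against 2 in IFI27, 2 in IFI44L and 1 in IFI44. Among the genes called higher in both lines, 16 of 21 with a window held the core, against 7 of 10 called in SCaBER alone, 4 of 4 called in RT112 alone and 3 of 6 called in neither. These shares describe letters in the windows and were not tested.

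Library totals were 6622473 to 7604581 counts in RT112 and 4528513 to 6914951 in SCaBER, and levels are given as CPM, the count scaled to a common library total. The limit of detection was set at 3 counts in a library, 0.394 to 0.453 CPM in RT112 and 0.434 to 0.662 CPM in SCaBER. FOXA1, the target, was 35.0, 29.4, 18.2 and 28.4 CPM in the siControl libraries, 1.32 and 3.24 under siFOXA1.1 and 9.18 and 16.0 under siFOXA1.2 in RT112 (edgeR log2 fold change ± SE -3.45 ± 0.47, adjusted p = 1.39e-05 for siFOXA1.1, and -1.102 ± 0.39, adjusted p = 0.215 for siFOXA1.2). The libraries of both FOXA1 siRNAs lay below the 4 control libraries. In SCaBER FOXA1 was near the limit, at 3, 4, 15 and 9 counts in the siControl libraries, 0 and 3 under siFOXA1.1 and 0 and 6 under siFOXA1.2, so the knock-down could not be read there. Mitochondrial genes took 27.0% ± 1.77 of the counts in RT112 under siFOXA1.1 (SD, n = 2) and 18.0 to 21.2% in the other 6 RT112 libraries. In SCaBER that share was 11.9% in both siFOXA1.1 libraries, within the 10.3 to 12.1% of the other 6. The share thus moved with the effector genes in RT112 and not in SCaBER, and its part in the result was not tested. Summed luminal markers were 1970.2 and 1806 CPM in RT112 under siFOXA1.1, below the 2169 to 3429.6 CPM of the other 6 libraries, and 797 and 835 CPM in SCaBER, below 1161 to 1475 CPM in the rest. Summed basal markers under siFOXA1.1 were 8771 and 7015 CPM in SCaBER, above 4509 to 6815 CPM in the other 6, and lay within the 851 to 1165 CPM of the others in RT112. The part of these marker changes in the results was not tested. Of 16 immune, endothelial and stromal markers, 11 in RT112 and 10 in SCaBER never passed 3 counts, and the rest did. With 0 counts in every library of the line were 9 in RT112 and 7 in SCaBER, among them PTPRC, CD3E, CD2 and MS4A1 in both lines. The largest count of any of these 16 markers in a library was 386 in RT112 and 141 in SCaBER. Their summed level was 56.9 and 62.8 CPM in RT112 under siFOXA1.1 and 10.4 to 25.5 CPM in the other 6, of which COL1A1 made up most (386 and 366 counts under siFOXA1.1), while COL1A2, DCN and PDGFRB stayed at or under 3 counts. In SCaBER the sum was 2.93 to 23.7 CPM in the 8 libraries. In bulk RNA, fewer expressing cells and less RNA per cell cannot be told apart.

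With the control siRNAs, most of the effector genes were lower in RT112 than in SCaBER. Of the 50 genes, 33 were called lower in RT112 than in SCaBER over the siControl libraries and 4 were called higher (edgeR, 4 libraries a line). Among all 12309 genes tested, 22.2% were called lower and 21.2% higher. The 4 higher in RT112 were GBP2, a guanylate-binding GTPase, the RNA helicase MOV10, the secreted glycoprotein LGALS3BP and TRAFD1, a feedback regulator of innate signalling. GBP2 stood apart from the other three, with a difference on the log2 scale of 2.32 ± 0.16 (adjusted p = 3.95e-08), against 0.47 for LGALS3BP, 0.68 for MOV10 and 0.76 for TRAFD1. The calls for these 3 were lost in the test on log2(TPM + 1), where the median of all genes was itself lower in RT112.

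Per length, as mean TPM over the 4 siControl libraries (± SD), the order of the levels in RT112 began with LGALS3BP at 210 ± 16.9, ISG15 at 180 ± 43.0, BST2 at 88.9 ± 27.9, IFI6 at 62.2 ± 16.2 and SAMD9 at 56.8 ± 15.9 TPM. In SCaBER it began with IFITM3 at 2519.8 ± 477, ISG15 at 1363 ± 337, IFIT3 at 794 ± 212, IFI6 at 423 ± 151 and LGALS3BP at 201 ± 39.0 TPM. LGALS3BP and ISG15, the ubiquitin-like modifier, lay within their SDs of each other in RT112, as did IFI6 and SAMD9, whereas in SCaBER IFITM3, which restricts viral fusion, lay above ISG15 by more than the SDs. The 3′ reads do not cover the gene length by which TPM divides, so this order is approximate. Across the 50 genes the median of the mean levels was 6.85 CPM in RT112 and 56.4 CPM in SCaBER. IFITM1 and IFI27 had 0 counts in all 4 RT112 siControl libraries, and IFI44 and OASL never passed 3 counts there. No gene was that low in every SCaBER siControl library: IFI27, a small membrane protein, held 41.5 to 119 CPM, IFI44 74.4 to 94.6 CPM and OASL 53.2 to 104 CPM.

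**Figure D1:**
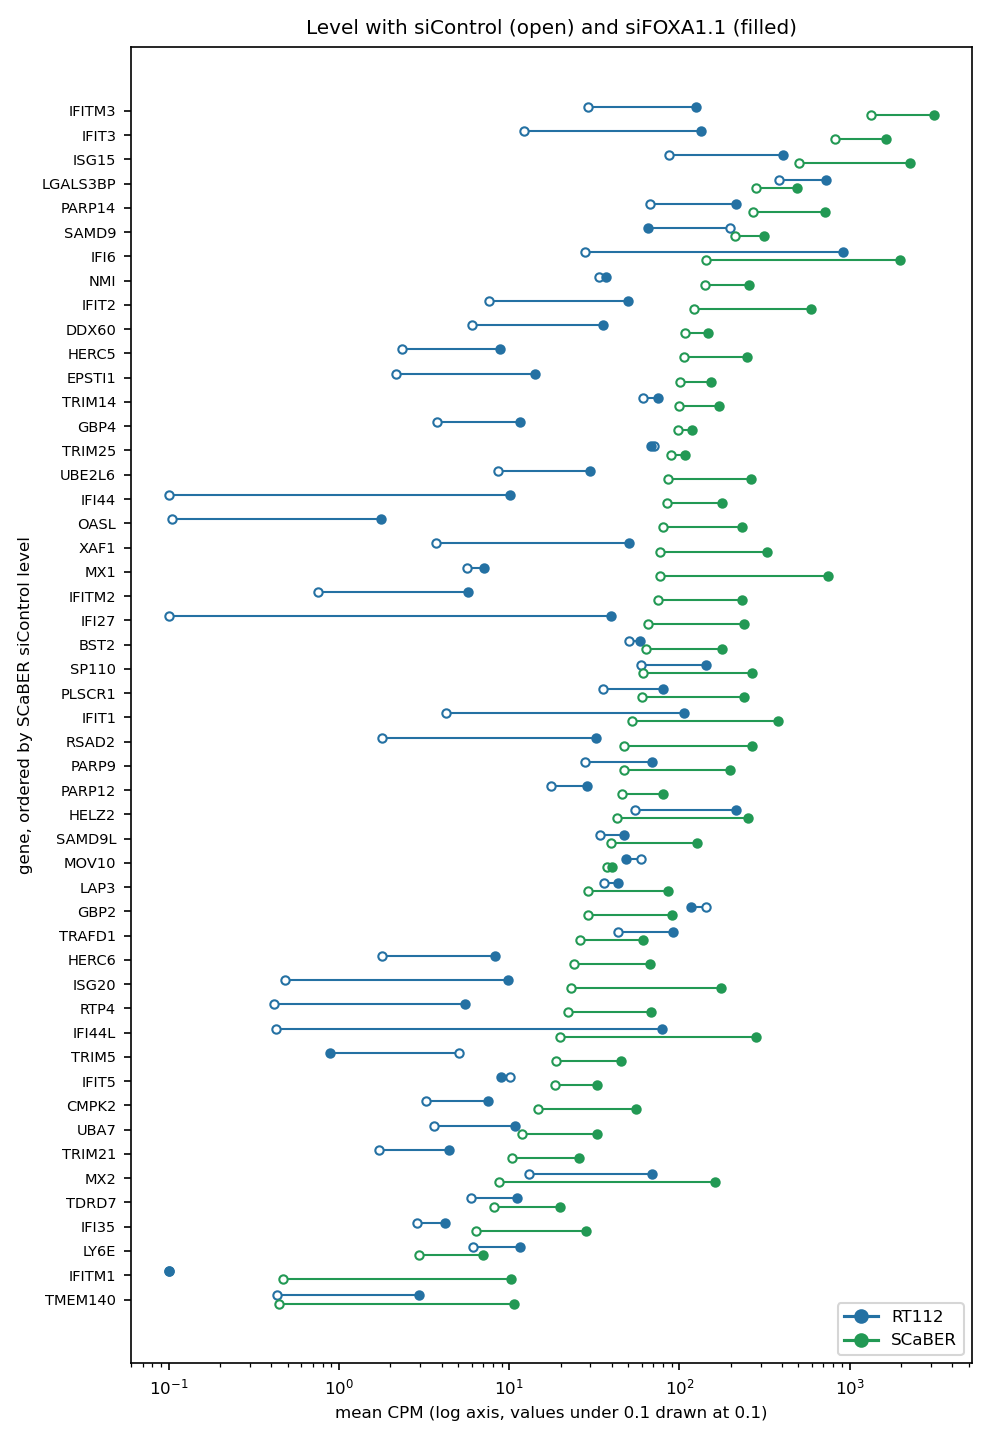
Mean CPM of the 50 genes (log axis) in RT112 (blue) and SCaBER (green), with open points for the 4 siControl libraries and filled points for the 2 siFOXA1.1 libraries, ordered by the SCaBER siControl level. Most open blue points lie left of the open green points. Library by library, which these means do not show, 23 genes in RT112 with siFOXA1.1 lay below every SCaBER siControl library and 13 above. All genes gave 34.3% and 24.9%.

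With siFOXA1.1, most of the effector genes rose in each line. In RT112, 30 of the 50 were called higher than the mean of the 2 control siRNAs and 1, SAMD9, was called lower, while 14.0% of all 13462 genes tested were called higher and 15.1% lower. In SCaBER, 39 were called higher and none lower, against 3.8% and 4.07% of 13407 genes. Calls are those of edgeR's quasi-likelihood test with p adjusted over all genes tested in that line, with 2 siFOXA1.1 and 4 siControl libraries.

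In a fit that kept every gene with a count, the median log2 fold change was 1.86 over the 49 genes with a value in RT112 and 1.63 over all 50 in SCaBER. The medians over all genes were -0.10 and 0. With IFI27 in RT112 set to its lower bound (6.58), the median there was the same, as it had to be with fitted value and bound both above it. Of the 30 calls in RT112, 29 were of genes whose 2 siFOXA1.1 libraries both exceeded all 4 siControl libraries, the exception being IFITM2. In SCaBER this held for 37 of 39 calls, with SAMD9 and IFI27 as exceptions. Calls and separation rest on the same libraries, so most called genes would separate. Whether called or not, 33 of the 48 effector genes tested in RT112 and 38 of the 49 in SCaBER were separated upward in this way. Among all genes tested these shares were 17.0% in RT112 and 13.4% in SCaBER. In RT112, 8 of the 48 genes that passed the filter on low counts (IFITM2, RTP4, TRIM21, ISG20, IFI27, IFI44, IFI44L and TMEM140) did so only with the help of libraries other than the controls. Of the 40 genes that reached the minimum in the controls of RT112, 24 were called higher. In SCaBER this was 38 of 48, as TMEM140 passed only with the help of other libraries. IFITM1 was tested in neither line and OASL was not tested in RT112.

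By line, 26 of the 50 genes were called higher in both, 12 in SCaBER alone, 4 in RT112 alone, 1 was lower in RT112 and higher in SCaBER, and 7 were called in neither. Of all genes tested, 14.0% were called higher in RT112 and 3.8% in SCaBER, and the share called in both was not counted. The 26 include IFITM2, RTP4, ISG20, IFI27, IFI44 and IFI44L, which passed the filter in RT112 only with the help of libraries other than the controls. The sum of all 50 genes was 1578 to 1721 CPM in the 4 siControl libraries of RT112 and 4335 ± 460 CPM with siFOXA1.1 (SD, n = 2). In SCaBER the sum was 4858 to 7125 CPM in the 4 siControl libraries and 17847 ± 2775 CPM with siFOXA1.1.

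**Figure D2:**
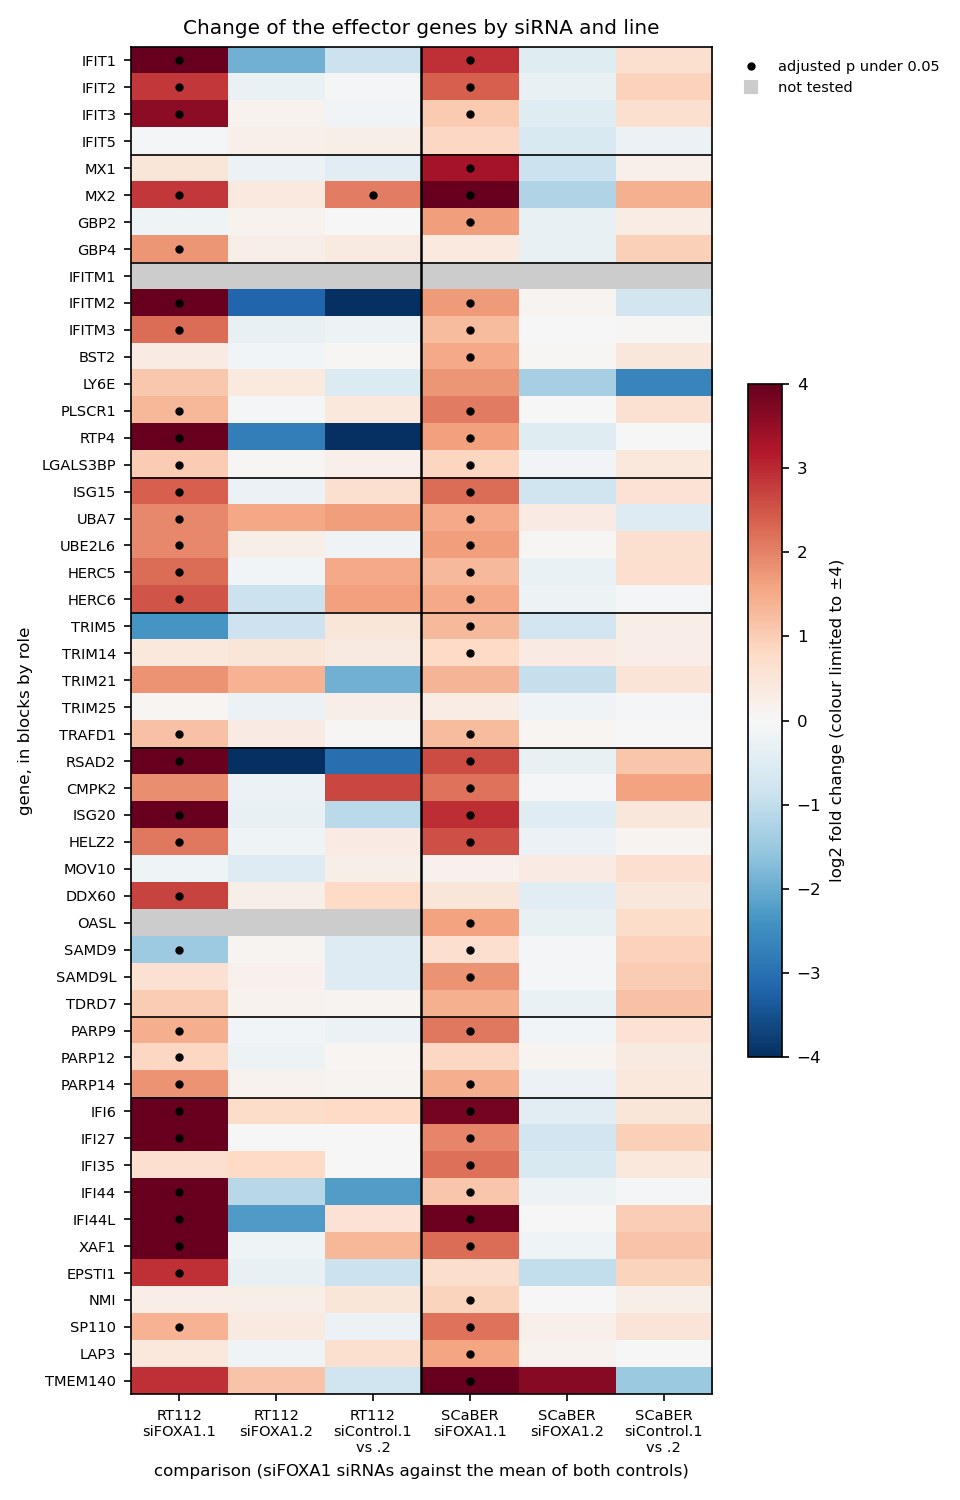
Log2 fold change (colour) of each of the 50 genes, in blocks by role, for siFOXA1.1 and siFOXA1.2 against the mean of both controls and for siControl.1 against siControl.2, in RT112 (left 3 columns) and SCaBER (right 3 columns). Dots mark adjusted p under 0.05 and grey cells were not tested. The dots gather in the siFOXA1.1 columns, with 31 in RT112 and 39 in SCaBER.

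In the sentences that follow, the 4 siControl values are in the order siControl.1 replicates 1 and 2 and siControl.2 replicates 1 and 2, values under a siRNA are replicate 1 and then 2, and fold changes are log2 values ± SE for siFOXA1.1 against the mean of both controls, with edgeR's adjusted p.

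The IFIT proteins bind viral RNA that lacks the host cap marks, and their 4 genes lie together on chromosome 10 (IFIT2 at chr10:89302046-89309271, IFIT5 at chr10:89414568-89420997, GRCh38.p14). IFIT1, IFIT2 and IFIT3 were called higher in both lines and IFIT5 in neither. IFIT1 in RT112 was 4.73, 1.06, 4.26 and 6.95 CPM in the siControl libraries, 94.3 and 119 under siFOXA1.1 and 0.583 and 1.502 under siFOXA1.2, a rise of 28.5-fold (log2 fold change 4.84 ± 0.35, adjusted p = 4.95e-09). The SCaBER values were 72.5, 56.4, 38.6 and 43.3 CPM in the siControl libraries, 265 and 496 under siFOXA1.1 and 33.0 and 38.8 under siFOXA1.2 (log2 fold change 2.91 ± 0.23, adjusted p = 2.77e-06). Both siFOXA1.1 libraries lay above every other library in each line.

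IFIT3, which stabilises IFIT1, was 12.0, 10.9, 10.8 and 15.0 CPM in the siControl libraries, 130 and 137 under siFOXA1.1 and 10.2 and 16.4 under siFOXA1.2 in RT112 (log2 fold change 3.58 ± 0.23, adjusted p = 5.84e-10). In SCaBER it started far higher, with 1003, 1000, 637 and 632 CPM in the siControl libraries, 1427 and 1846 under siFOXA1.1 and 575 and 551 under siFOXA1.2 (log2 fold change 1.06 ± 0.15, adjusted p = 3.51e-04). The groups did not overlap in either line, yet RT112 under siFOXA1.1 remained below all SCaBER controls. IFIT2, a partner of both, was 5.56 to 10.2 CPM in the 4 siControl libraries and 38.7 and 60.5 CPM under siFOXA1.1 in RT112 (2.84 ± 0.41, adjusted p = 2.68e-05). Its SCaBER values were 79.3 to 188 CPM in the 4 siControl libraries and 455 and 733 CPM under siFOXA1.1 (2.38 ± 0.20, adjusted p = 5.31e-06). IFIT5 was 5.19 to 13.9 CPM in the 4 siControl libraries and 7.91 and 10.0 CPM under siFOXA1.1 in RT112 (-0.04 ± 0.46, adjusted p = 0.969). Its SCaBER values were 15.4 to 21.6 CPM in the 4 siControl libraries and 18.6 and 46.7 CPM under siFOXA1.1 (0.83 ± 0.37, adjusted p = 0.211). The IFIT5 groups overlapped in both lines, and in SCaBER the 2 siFOXA1.1 libraries themselves lay far apart.

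MX1 and MX2 are dynamin-like GTPases that trap viral ribonucleoproteins in the cytoplasm and at the nuclear pore, respectively, and their genes are neighbours on chromosome 21 (MX2 at chr21:41362027-41409393, MX1 at chr21:41420558-41459214). MX2 was called higher in both lines and MX1 in SCaBER alone. MX1 in SCaBER was 113, 51.1, 54.7 and 87.9 CPM in the siControl libraries, 653 and 845 under siFOXA1.1 and 35.9 and 47.5 under siFOXA1.2, 9.94-fold higher with siFOXA1.1 (log2 fold change 3.31 ± 0.27, adjusted p = 3.93e-06). In RT112 it was 4.34, 4.98, 5.19 and 8.06 CPM in the siControl libraries, 2.49 and 11.6 under siFOXA1.1 and 8.45 and 0.956 under siFOXA1.2 (log2 fold change 0.49 ± 0.75, adjusted p = 0.676). The SCaBER groups stood apart, whereas the 2 siFOXA1.1 values of RT112 lay on either side of the controls.

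MX2 in RT112 was 19.9, 21.9, 4.79 and 5.70 CPM in the siControl libraries, 59.3 and 78.2 under siFOXA1.1 and 18.5 and 8.47 under siFOXA1.2 (log2 fold change 2.84 ± 0.29, adjusted p = 4.29e-07). Its SCaBER libraries held 11.1, 14.0, 3.73 and 5.74 CPM in the siControl libraries, 136 and 187 under siFOXA1.1 and 3.70 and 2.85 under siFOXA1.2 (log2 fold change 4.42 ± 0.27, adjusted p = 2.43e-07). The siFOXA1.1 libraries exceeded the rest in both lines. MX2 was also the one effector called between the control siRNAs, since siControl.1 exceeded siControl.2 in RT112 (log2 fold change 2.05 ± 0.38, adjusted p = 0.00489).

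Guanylate-binding proteins attack the membranes around intracellular pathogens, with GBP4 called in RT112 and GBP2 in SCaBER. GBP2, which stood higher in RT112, was 137 to 156 CPM in the 4 siControl libraries and 88.7 and 143 CPM under siFOXA1.1 there (-0.18 ± 0.17, adjusted p = 0.486). In SCaBER it was 24.8 to 35.4 CPM in the 4 siControl libraries and 83.7 and 97.0 CPM under siFOXA1.1 (1.68 ± 0.24, adjusted p = 4.78e-04). GBP4 was 2.10 to 6.19 CPM in the 4 siControl libraries and 7.03 and 16.1 CPM under siFOXA1.1 in RT112 (1.76 ± 0.62, adjusted p = 0.0379). Its SCaBER values overlapped, at 59.7 to 136 CPM in the 4 siControl libraries and 90.9 and 147 CPM under siFOXA1.1 (0.39 ± 0.22, adjusted p = 0.344).

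Among 8 membrane, entry and release factors, 5 were called higher in RT112 and 6 in SCaBER. IFITM1, IFITM2 and IFITM3 alter membranes where enveloped viruses fuse, and their near-identical sequences can split reads between them, so their separate values are uncertain. IFITM3 was 27.2, 25.5, 27.5 and 35.7 CPM in the siControl libraries, 132 and 120 under siFOXA1.1 and 21.9 and 24.9 under siFOXA1.2 in RT112 (log2 fold change 2.25 ± 0.19, adjusted p = 3.05e-08). SCaBER libraries gave 1710.1, 1021, 1324 and 1276 CPM in the siControl libraries, 3413 and 2829 under siFOXA1.1 and 1309.9 and 1295 under siFOXA1.2 (log2 fold change 1.26 ± 0.18, adjusted p = 5.97e-04), and the groups did not overlap in either line. IFITM2 had 0, 0, 6 and 16 counts in the siControl libraries, 63 and 15 under siFOXA1.1 and 0 and 0 under siFOXA1.2 in RT112, where the lower siFOXA1.1 library fell among the controls (log2 fold change 5.24 ± 1.56, adjusted p = 0.0165). IFITM1 had 0 counts in all 8 RT112 libraries. In SCaBER it had 0, 3, 6 and 2 counts in the siControl libraries, 8 and 131 under siFOXA1.1 and 1 and 2 under siFOXA1.2, a level set by 1 library.

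LGALS3BP, a secreted glycoprotein and the effector with the highest level per length in RT112, was 368, 443, 357 and 372.9 CPM in the siControl libraries, 860 and 586 under siFOXA1.1 and 383 and 407 under siFOXA1.2 there (log2 fold change 1.03 ± 0.12, adjusted p = 2.24e-06). The SCaBER values were 308, 337, 234 and 245 CPM in the siControl libraries, 381 and 605 under siFOXA1.1 and 257 and 252 under siFOXA1.2 (0.85 ± 0.18, adjusted p = 0.00817), with no overlap in either line. BST2 (tetherin), which holds budding virions at the cell surface, overlapped in RT112 at 62.1, 39.0, 65.7 and 36.1 CPM in the siControl libraries, 78.2 and 38.6 under siFOXA1.1 and 48.8 and 43.6 under siFOXA1.2 (0.32 ± 0.27, adjusted p = 0.422). In SCaBER BST2 was 49.7 to 93.5 CPM in the 4 siControl libraries and 163 and 192 CPM under siFOXA1.1 (1.52 ± 0.23, adjusted p = 8.24e-04). PLSCR1, a phospholipid scramblase that hinders entry, rose by 1.31 ± 0.20 (adjusted p = 4.76e-05) in RT112 and 2.07 ± 0.20 (adjusted p = 1.59e-05) in SCaBER. RTP4, a chaperone of membrane receptors, had 0, 0, 0 and 12 counts in the siControl libraries, 17 and 58 under siFOXA1.1 and 0 and 0 under siFOXA1.2 in RT112 (log2 fold change 5.64 ± 1.78, adjusted p = 0.0230). One RT112 control library thus came near the lower siFOXA1.1 library, and DESeq2 did not call the gene (adjusted p from 0.00578 to 0.326 over all alternatives).

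All 5 genes of the ISG15 system were called higher in both lines. ISG15 is a ubiquitin-like protein joined to target proteins by the activating enzyme UBA7, the conjugating enzyme UBE2L6 and the ligase HERC5, and HERC6 is a relative of HERC5. ISG15 was 106, 102, 55.1 and 84.4 CPM in the siControl libraries, 422 and 392 under siFOXA1.1 and 71.1 and 70.7 under siFOXA1.2 in RT112 (log2 fold change 2.38 ± 0.14, adjusted p = 2.45e-10). Its SCaBER libraries held 629, 576, 365 and 435 CPM in the siControl libraries, 1970.1 and 2583 under siFOXA1.1 and 296 and 265 under siFOXA1.2 (log2 fold change 2.24 ± 0.15, adjusted p = 7.54e-07), and the siFOXA1.1 libraries stood clear of all others in both lines. UBE2L6 was 5.28 to 13.2 CPM in the 4 siControl libraries and 15.8 and 44.0 CPM under siFOXA1.1 in RT112 (1.93 ± 0.42, adjusted p = 0.00158). Its SCaBER values were 47.5 to 106 CPM in the 4 siControl libraries and 240 and 284 CPM under siFOXA1.1 (1.67 ± 0.22, adjusted p = 2.23e-04). The enzymes changed by 1.92 to 2.52 in RT112 and by 1.29 to 1.67 in SCaBER on the log2 scale. HERC5 lost its RT112 call when the batch number entered as a replicate block (log2 fold change 2.16, adjusted p = 0.0601, against 0.0452 without it, and 0.0140 to 0.378 over all alternatives). UBA7 lay at the threshold in SCaBER (adjusted p = 0.04996), and in RT112 1 of its siFOXA1.2 libraries reached 14.1 CPM against 6.88 and 14.7 CPM under siFOXA1.1.

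Many TRIM proteins are ubiquitin ligases, among them TRIM5, which recognises retroviral capsids, TRIM21, which binds antibody-coated virions, and TRIM25, which acts on the RNA sensor RIG-I. Of the 5 genes here, TRAFD1 included, 1 was called higher in RT112 (TRAFD1) and 3 in SCaBER (TRIM5, TRIM14 and TRAFD1). TRIM5 in RT112 was 7.10, 4.53, 3.73 and 4.86 CPM in the siControl libraries, 0.439 and 1.33 under siFOXA1.1 and 1.46 and 4.10 under siFOXA1.2, and the difference missed the threshold (log2 fold change -2.35 ± 1.03, adjusted p = 0.0964). In SCaBER it was 26.0, 15.1, 11.5 and 22.5 CPM in the siControl libraries, 28.8 and 62.3 under siFOXA1.1 and 11.6 and 9.82 under siFOXA1.2 (log2 fold change 1.31 ± 0.38, adjusted p = 0.0448). Both siFOXA1.1 libraries thus lay below the 4 controls in RT112 and above them in SCaBER, and DESeq2 called TRIM5 lower in RT112 (adjusted p from 0.0275 to 0.285 over all alternatives). TRAFD1 was 35.6 to 51.2 CPM in the 4 siControl libraries and 99.0 and 83.5 CPM under siFOXA1.1 in RT112 (1.19 ± 0.19, adjusted p = 1.01e-04) and rose by 1.26 ± 0.29 (adjusted p = 0.0141) in SCaBER. TRIM14, an adaptor in mitochondrial antiviral signalling, rose by 0.81 ± 0.21 (adjusted p = 0.0241) in SCaBER and gave 0.43 (adjusted p = 0.0713) in RT112, where the siFOXA1.2 libraries were the highest. TRIM21 gave 1.79 (adjusted p = 0.189) and 1.35 (adjusted p = 0.103) from low counts, and in SCaBER it was called between the 2 FOXA1 siRNAs (siFOXA1.1 over siFOXA1.2 2.27 ± 0.60, adjusted p = 0.0460).

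Of 10 genes that act on nucleotides or nucleic acids, 4 were called higher and 1 lower in RT112, and 7 were called higher in SCaBER. RSAD2 (viperin) makes a chain-terminating nucleotide and CMPK2 phosphorylates pyrimidine nucleotides, and the pair are neighbours on chromosome 2 (CMPK2 at chr2:6840553-6866635, RSAD2 at chr2:6865885-6898239) whose annotated spans overlap, so reads from the shared stretch are uncertain. RSAD2 in RT112 had 0, 5, 31 and 16 counts in the siControl libraries, 178 and 261 under siFOXA1.1 and 0 and 0 under siFOXA1.2 (log2 fold change 5.01 ± 0.60, adjusted p = 3.47e-06). Against siFOXA1.2, where both libraries were at 0, it was at least 76.2-fold higher with siFOXA1.1, taking 3 counts per library as the floor. In SCaBER RSAD2 was 65.2, 64.7, 32.1 and 27.4 CPM in the siControl libraries, 219 and 315 under siFOXA1.1 and 26.5 and 44.0 under siFOXA1.2 (log2 fold change 2.62 ± 0.23, adjusted p = 5.42e-06). The siFOXA1.1 libraries exceeded all others in both lines. CMPK2 overlapped in RT112, at 0.399 to 6.80 CPM in the 4 siControl libraries and 6.15 and 8.84 CPM under siFOXA1.1 (1.87 ± 0.79, adjusted p = 0.0826). In SCaBER it did not, at 4.87 to 22.8 CPM in the 4 siControl libraries and 53.2 and 57.4 CPM under siFOXA1.1 (2.16 ± 0.33, adjusted p = 8.37e-04).

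ISG20, a nuclease that degrades single-stranded RNA, had 0, 4, 10 and 0 counts in the siControl libraries, 60 and 74 under siFOXA1.1 and 4 and 1 under siFOXA1.2 in RT112 (log2 fold change 4.54 ± 1.22, adjusted p = 0.00762). SCaBER libraries gave 20.6, 33.0, 18.7 and 20.3 CPM in the siControl libraries, 79.0 and 271 under siFOXA1.1 and 20.4 and 11.9 under siFOXA1.2 (log2 fold change 2.95 ± 0.36, adjusted p = 1.56e-04), with siFOXA1.1 highest in both lines and its 2 SCaBER libraries far apart. DDX60, a helicase of the RNA sensing pathway, was 5.52, 9.66, 5.72 and 3.34 CPM in the siControl libraries, 30.6 and 40.2 under siFOXA1.1 and 6.56 and 6.97 under siFOXA1.2 in RT112 (log2 fold change 2.72 ± 0.37, adjusted p = 1.34e-05). In SCaBER the groups overlapped, at 128, 123, 94.1 and 85.9 CPM in the siControl libraries, 111 and 183 under siFOXA1.1 and 57.2 and 97.3 under siFOXA1.2 (0.49 ± 0.24, adjusted p = 0.259). HELZ2, a co-activator with helicase domains, rose from mean control levels of 54.9 and 42.9 CPM to 215 and 254 CPM in RT112 and SCaBER (log2 fold changes 2.10 ± 0.16, adjusted p = 6.86e-09 and 2.59 ± 0.26, adjusted p = 2.84e-05). OASL, an OAS relative that assists RNA sensing, was called in SCaBER (log2 fold change 1.61 ± 0.21, adjusted p = 2.07e-04). In RT112 OASL had 3 counts over all siControl libraries and 24 under siFOXA1.1, a ratio of CPM of 17.0 with a 95% exact counting interval of 5.16 to 88.2. Such intervals and floors cover counting error only.

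SAMD9 was the one effector called lower. SAMD9 and SAMD9L are cytoplasmic restriction factors of poxviruses that inhibit translation, encoded side by side on chromosome 7 (SAMD9 at chr7:93099518-93117979, SAMD9L at chr7:93130056-93148385). In RT112 SAMD9 was 181, 135, 230 and 244 CPM in the siControl libraries, 86.6 and 43.6 under siFOXA1.1 and 210 and 200 under siFOXA1.2 (log2 fold change -1.46 ± 0.20, adjusted p = 1.36e-05). Both siFOXA1.1 libraries lay below all the others. In SCaBER SAMD9 was 309, 246, 151 and 137 CPM in the siControl libraries, 253 and 372.7 under siFOXA1.1 and 189 and 194 under siFOXA1.2 (log2 fold change 0.67 ± 0.19, adjusted p = 0.0404), with 1 siFOXA1.1 library among the siControl.1 values. Against siControl.1 alone the SCaBER change was 0.20 and the call was lost. SAMD9L was 21.4 to 41.1 CPM in the 4 siControl libraries and 47.4 and 46.6 CPM under siFOXA1.1 in RT112 (0.61 ± 0.23, adjusted p = 0.0567). The SCaBER values were 21.0 to 55.0 CPM in the 4 siControl libraries and 105 and 149 CPM under siFOXA1.1 (1.79 ± 0.24, adjusted p = 2.46e-04). Its siFOXA1.1 libraries lay above the controls in both lines, and the call was made in SCaBER.

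The PARP proteins here are ADP-ribosyltransferases of the interferon response. PARP9 and PARP14 were called higher in both lines. PARP14 was 50.3 to 81.0 CPM in the 4 siControl libraries and 227 and 201 CPM under siFOXA1.1 in RT112 (1.79 ± 0.17, adjusted p = 1.26e-07). Its SCaBER values were 219 to 315 CPM in the 4 siControl libraries and 635 and 799 CPM under siFOXA1.1 (1.45 ± 0.16, adjusted p = 5.86e-05), and PARP9 changed by 1.45 in RT112 and 2.11 in SCaBER. PARP12 had nearly the same estimate in both lines, 0.82 ± 0.30 (adjusted p = 0.0489) in RT112 and 0.83 ± 0.26 (adjusted p = 0.0636) in SCaBER, on either side of the threshold, and with the replicate block it was called in SCaBER as well (adjusted p = 0.0399, 0.00187 to 0.634 over all alternatives). The difference between the lines was -0.02 (adjusted p = 1) for PARP12.

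IFI27, IFI44 and IFI44L went from the limit of detection to clear counts in RT112. IFI27, a small membrane protein of mitochondria and endoplasmic reticulum, had 0, 0, 0 and 0 counts in the siControl libraries, 426 and 116 under siFOXA1.1 and 0 and 0 under siFOXA1.2. It was at least 95.5-fold higher with siFOXA1.1 than in the controls, at a floor of 3 counts per library. IFI44L, a paralogue and neighbour of IFI44, had 2, 5, 0 and 5 counts in the siControl libraries, 504 and 566 under siFOXA1.1 and 0 and 1 under siFOXA1.2 (log2 fold change 7.64 ± 0.47, adjusted p = 4.74e-10). IFI44 had 0, 0, 0 and 1 counts in the siControl libraries, 58 and 79 under siFOXA1.1 and 0 and 0 under siFOXA1.2. That is 1 count against 137, a ratio of CPM of 291 with a 95% exact counting interval of 51.4 to 11583. For each of these genes both siFOXA1.1 libraries exceeded all the others in RT112, and the promoters shown above carry ISRE cores in all of them.

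In SCaBER these genes started from a measurable level. IFI44L was 27.0, 25.6, 9.74 and 17.0 CPM in the siControl libraries, 219 and 342 under siFOXA1.1 and 19.1 and 17.3 under siFOXA1.2 (log2 fold change 3.93 ± 0.24, adjusted p = 2.43e-07). IFI44 was 78.9, 88.2, 94.6 and 74.4 CPM in the siControl libraries, 141 and 213 under siFOXA1.1 and 90.1 and 54.2 under siFOXA1.2 (log2 fold change 1.099 ± 0.23, adjusted p = 0.00881), and neither overlapped the controls. IFI27 was 54.2, 119, 41.5 and 46.2 CPM in the siControl libraries, 56.8 and 421 under siFOXA1.1 and 36.4 and 35.0 under siFOXA1.2 (log2 fold change 1.96 ± 0.47, adjusted p = 0.0169). Its call in SCaBER rested on siFOXA1.1 replicate 2, as replicate 1 lay among the controls and without replicate 2 the log2 fold change was -0.045.

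IFI6, a mitochondrial and endoplasmic reticulum protein that limits flaviviruses, had the smallest p of the 50 genes in RT112. It was 34.6, 34.7, 20.2 and 21.1 CPM in the siControl libraries, 1129.7 and 689 under siFOXA1.1 and 57.4 and 31.0 under siFOXA1.2, a rise of 36.8-fold (log2 fold change 5.20 ± 0.19, adjusted p = 8.11e-13). Its SCaBER libraries held 225, 111, 122 and 117 CPM in the siControl libraries, 1925 and 2049 under siFOXA1.1 and 117 and 88.9 under siFOXA1.2, 14.3-fold higher (log2 fold change 3.84 ± 0.23, adjusted p = 2.43e-07). All siFOXA1.1 libraries lay far above the rest. XAF1, a pro-apoptotic protein, was 0.556 to 5.74 CPM in the 4 siControl libraries and 44.1 and 56.9 CPM under siFOXA1.1 in RT112 (4.03 ± 0.49, adjusted p = 3.64e-06) and rose by 2.22 ± 0.19 (adjusted p = 4.71e-06) in SCaBER. EPSTI1 was 0.394 to 4.17 CPM in the 4 siControl libraries and 15.1 and 13.1 CPM under siFOXA1.1 in RT112 (2.91 ± 0.71, adjusted p = 0.00367). In SCaBER EPSTI1 overlapped, at 66.7 to 133 CPM in the 4 siControl libraries and 105 and 203 CPM under siFOXA1.1 (0.71 ± 0.23, adjusted p = 0.0810), and the replicate block called it (adjusted p = 0.0453, 7.71e-04 to 0.737 over all alternatives).

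SP110, a nuclear body protein, was called in both lines (1.41 in RT112 and 2.18 in SCaBER on the log2 scale). IFI35 and NMI, which bind each other, and LAP3, a leucine aminopeptidase, were called in SCaBER alone, by 0.90 to 2.19, and overlapped the controls in RT112. TMEM140, a membrane protein, had few counts in SCaBER, 0, 3, 8 and 0 counts in the siControl libraries, 39 and 97 under siFOXA1.1 and 21 and 46 under siFOXA1.2 (log2 fold change 4.67 ± 1.06, adjusted p = 0.0134). Its siFOXA1.2 libraries lay above the controls as well.

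**Figure D3:**
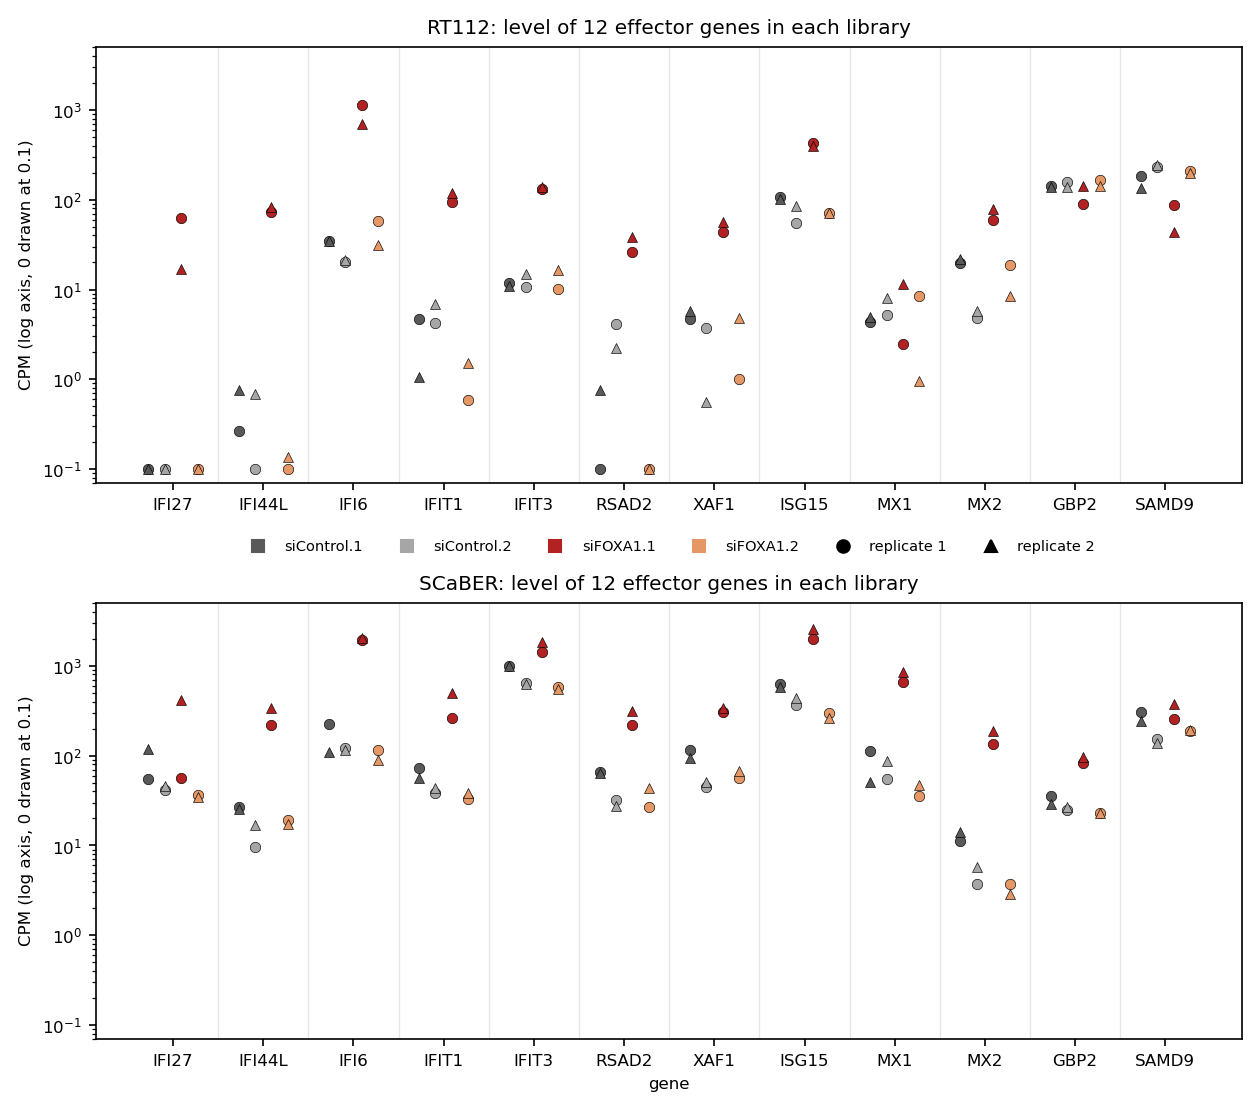
CPM (log axis, 0 drawn at 0.1) of 12 effector genes in each library of RT112 (top) and SCaBER (bottom), with colours for the siRNA, circles for replicate 1 and triangles for replicate 2. The red siFOXA1.1 points stand above the rest for most genes, overlap them for MX1 and GBP2 in RT112 and for IFI27 and SAMD9 in SCaBER, and lie below for SAMD9 in RT112.

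IFIT5, IFITM1, LY6E, TRIM21, TRIM25, MOV10 and TDRD7, 7 of the 50 genes, were called in neither line. MOV10, a helicase that restricts retroelements, was 43.6 to 68.5 CPM in the 4 siControl libraries and 59.6 and 36.98 CPM under siFOXA1.1 in RT112 (-0.18 ± 0.24, adjusted p = 0.607). In SCaBER MOV10 was 25.5 to 48.4 CPM in the 4 siControl libraries and 38.8 and 40.9 CPM under siFOXA1.1 (0.16 ± 0.26, adjusted p = 0.799). TRIM25 was 63.9 to 78.2 CPM in the 4 siControl libraries and 58.9 and 77.8 CPM under siFOXA1.1 in RT112 (0.08 ± 0.18, adjusted p = 0.788). Its SCaBER values were 85.5 to 92.1 CPM in the 4 siControl libraries and 85.0 and 131 CPM under siFOXA1.1 (0.30 ± 0.21, adjusted p = 0.469). MOV10 and TRIM25 had control levels well above the limit of detection and overlapped the controls in both lines. LY6E, a membrane protein that blocks coronavirus fusion, gave 1.06 ± 0.51 (adjusted p = 0.128) in RT112 and 1.78 ± 1.06 (adjusted p = 0.369) in SCaBER. TDRD7, an inhibitor of autophagy in infected cells, gave 1.01 ± 0.50 (adjusted p = 0.140) in RT112 and 1.43 ± 0.64 (adjusted p = 0.212) in SCaBER. LY6E, TDRD7 and TRIM21 had few counts and wide errors. In RT112 the siFOXA1.1 libraries of LY6E and TDRD7 nevertheless lay above all controls, and in SCaBER they overlapped.

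Whether siFOXA1.1 acted differently in the 2 lines was tested directly over all 16 libraries. The log2 fold change was larger in RT112 for 10 of the 50 genes and smaller for 4, against 1.03% and 1.55% of 15464 genes tested. Larger in RT112 were IFIT1, IFIT3, IFITM3, RSAD2, DDX60, IFI6, IFI27, IFI44, IFI44L and EPSTI1, and smaller were MX1, GBP2, TRIM5 and SAMD9. IFIT3 differed by 2.50 ± 0.23 (adjusted p = 3.91e-06), DDX60 by 2.22 ± 0.40 (adjusted p = 0.00357) and RSAD2 by 2.37 ± 0.54 (adjusted p = 0.0206) on the log2 scale, RT112 minus SCaBER. MX1 differed by -2.85 ± 0.69 (adjusted p = 0.0293), TRIM5 by -3.67 ± 0.79 (adjusted p = 0.0142), SAMD9 by -2.14 ± 0.30 (adjusted p = 4.15e-04) and GBP2 by -1.87 ± 0.29 (adjusted p = 9.22e-04). All 10 genes larger in RT112 had every siControl library there below all SCaBER siControl libraries. So did 31 of the 50 genes and 22.2% of all genes. The same libraries enter the fold changes, so this pattern is partly built into the comparison. With siControl.2 as the only control, or on log2(TPM + 1), 8 of the 50 genes were called in place of 14. With siControl.2 alone these were 5 larger in RT112 and 3 smaller, where all 15464 genes gave 66 and 136. On log2(TPM + 1) the balance turned, with 2 larger and 6 smaller, where all genes gave 110 and 509 and a median of -0.21. With the replicate block 21 were called, with BST2, GBP4, IFITM2, MX2, OASL, RTP4 and XAF1 gained, and DESeq2 gained 6 and lost MX1. Fold changes of IFI27, IFI44 and IFI44L against controls at or near 0 depend on the fit's prior, so the size of their differences between lines was not interpreted.

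**Figure D4:**
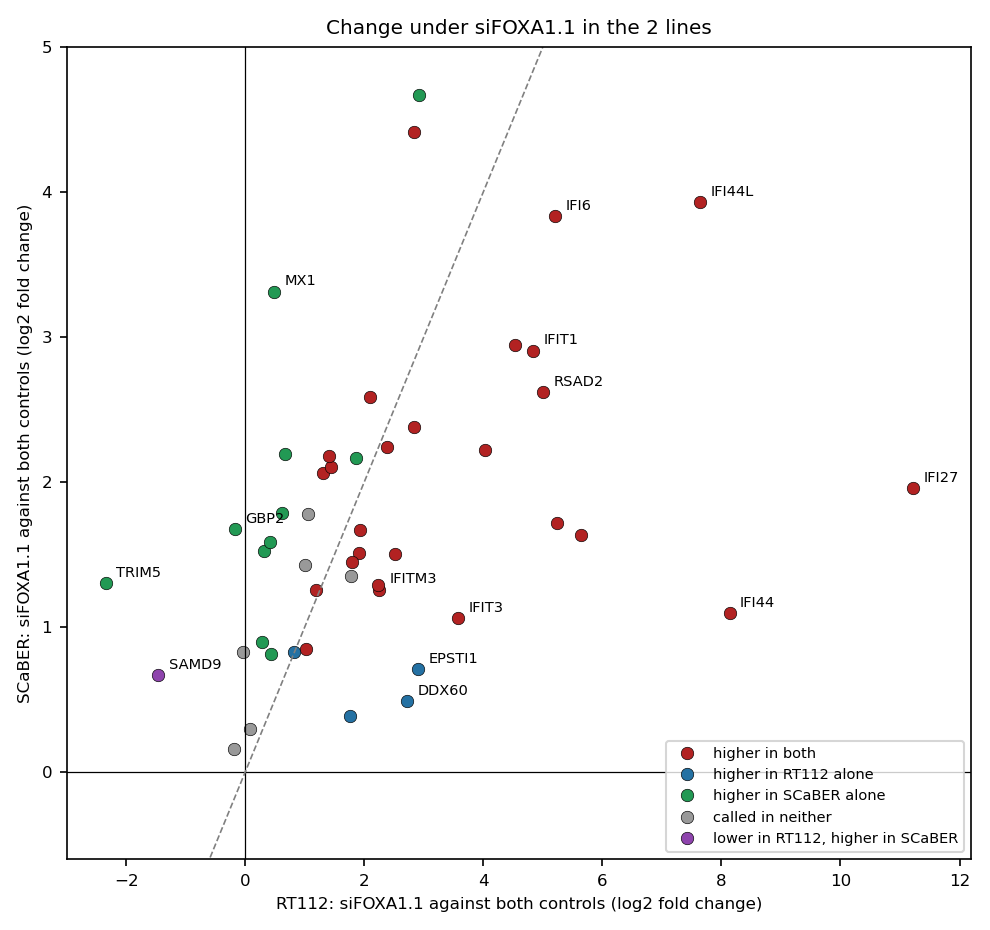
Log2 fold change under siFOXA1.1 against the mean of both controls in RT112 (horizontal) and SCaBER (vertical) for the 48 genes tested in both lines, coloured by where they were called, with the line of equal change dashed and names for the genes whose change differed between the lines. IFI27, IFI44 and IFI44L lie far to the right, and TRIM5, SAMD9, GBP2 and MX1 to the left of the dashed line.

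Levels with siFOXA1.1 in RT112 were also set against those of SCaBER with the control siRNAs. Both RT112 siFOXA1.1 libraries lay below all 4 SCaBER siControl libraries for 23 of the 50 genes and above all of them for 13, where all genes gave 34.3% and 24.9%. With siControl in RT112, 31 genes lay below and 3 above (all genes 22.2% and 19.1%). SAMD9 overlapped the SCaBER controls with siControl in RT112 and lay below them with siFOXA1.1. IFIT1, IFI6 and IFI44L went from below the SCaBER controls to above them, while IFIT3, IFITM3, MX1, OASL, DDX60 and IFI44 stayed below.

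With siFOXA1.2 no effector gene was called in either line by edgeR. At an unadjusted p under 0.05, 3 were higher and 3 lower in RT112, and 1 higher and 5 lower in SCaBER, against 11.4% and 5.24% of all genes in both directions. Among all genes, 0.877% were called higher and 0.899% lower in RT112, and 0.0224% and 0.0149% in SCaBER. The median was -0.05 over the 49 genes with a value in RT112 and -0.23 over all 50 in SCaBER, where all genes had 0. DESeq2 called 2 genes lower in each line, IFIT1 and RSAD2 in RT112 and ISG15 and EPSTI1 in SCaBER. Over all genes it called 169 higher and 216 lower of 13462 in RT112, and 25 and 14 of 13407 in SCaBER. With the batch number as a replicate block, edgeR called IFIT1 and RSAD2 lower and IFI6 higher in RT112, and ISG15 lower in SCaBER. All genes with that block gave 165 higher and 172 lower in RT112, and 18 and 6 in SCaBER.

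IFIT1 in RT112 was 0.583 and 1.502 CPM with siFOXA1.2 against 1.06 to 6.95 CPM in the controls (log2 fold change -1.91 ± 0.54, adjusted p = 0.0837), and RSAD2, at 0 in both siFOXA1.2 libraries, was also at 0 in 1 control library. IFI6 gave 0.74 ± 0.20 (adjusted p = 0.0680), with 1 of its 2 libraries among the controls. In SCaBER, ISG15 was 296 and 265 CPM with siFOXA1.2, below the 4 controls (-0.79 ± 0.17, adjusted p = 0.214). In RT112 the siFOXA1.2 libraries lay above all controls for 2 of the tested genes (TRIM14 and SP110) and below for 2 (IFITM3 and TRIM25), against 8.66% and 10.7% of all genes. The SCaBER siFOXA1.2 libraries lay below all controls for 8 tested genes and above for 1, TMEM140, against 8.09% and 6.97% of all genes.

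The difference between the 2 FOXA1 siRNAs was tested without the controls. Between siFOXA1.1 and siFOXA1.2, 27 of the 50 genes were called higher with siFOXA1.1 in RT112 and 1, SAMD9, lower, where all genes gave 11.4% and 13.3%. Among the 27 were IFITM2, RTP4, ISG20, IFI27, IFI44 and IFI44L, which passed the filter only with the help of libraries other than the controls. In SCaBER 36 were called higher and none lower, where all genes gave 1.72% and 2.42%. SAMD9 differed by -1.56 ± 0.22 (adjusted p = 2.91e-05) in RT112, IFI6 by 4.47 ± 0.24 (adjusted p = 2.73e-10) in RT112 and 4.28 ± 0.30 (adjusted p = 1.44e-06) in SCaBER, and MX1 by 4.17 ± 0.36 (adjusted p = 1.15e-05) in SCaBER. The 2 siRNAs also differed in how far FOXA1 itself fell in RT112 (-2.34 ± 0.50, adjusted p = 0.00154), so siRNA and FOXA1 level cannot be told apart in these comparisons.

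Pooling both FOXA1 siRNAs against both controls set 4 libraries against 4, and 41 of the 50 genes could be tested in RT112 and 49 in SCaBER. IFITM2, RTP4 and ISG20, called with siFOXA1.1 in RT112, were among those not tested there. By edgeR none was called in either line, where all genes gave 0.0417% higher and 0.0667% lower in RT112 and 0.0% and 0.0084% in SCaBER. At an unadjusted p under 0.05, 21 were higher in RT112 and 30 in SCaBER, and none lower, against 12.1% and 8.9% of all genes in both directions. DESeq2 called 1 gene in each line, IFI6 in RT112 and TMEM140 in SCaBER. Over all genes it called 90 higher and 80 lower of 11986 in RT112, and 28 and 9 of 11902 in SCaBER. Without the filter on low counts edgeR called 6 genes higher in RT112, IFI27, IFI44L, IFI6, IFIT1, IFIT3 and XAF1, and 26 in SCaBER. In that setting all genes gave 71 higher and 52 lower of 19885 in RT112, and 159 and 54 of 20017 in SCaBER. The pooled groups mix 2 siRNAs that differed for most of these genes, and the count depended on the setting.

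Between the control siRNAs, most effector genes in SCaBER stood higher with siControl.1. Both siControl.1 libraries exceeded both siControl.2 libraries for 29 of the 50 genes and lay below for 2, where all genes gave 20.0% and 18.5%. The median difference over the 50 genes was 0.46 on the log2 scale. No difference passed edgeR's threshold (all genes 0.0448% and 0.0224%), and 19 genes were higher and 1 lower at an unadjusted p under 0.05 (all genes 6.35% in both directions). DESeq2 called 4 higher (RSAD2, SAMD9, IFIT3 and XAF1), where all genes gave 46 higher and 26 lower of 13407. The replicate block gave 24 and 13 over all genes. XAF1 was 116 and 95.2 CPM with siControl.1 and 45.3 and 50.3 CPM with siControl.2 (1.13 ± 0.23, adjusted p = 0.0905), the difference that a replicate block also called. The siFOXA1.2 median in SCaBER was -0.50 against siControl.1 and 0.07 against siControl.2, and for siFOXA1.1 it was 1.37 and 1.66. In RT112 the order was mixed, with 11 genes above and 9 below (all genes 19.7% and 27.0%), and edgeR called MX2 (all genes 1.1% higher and 1.01% lower). With the replicate block ISG15 and IFI6 were called higher and RSAD2 lower with siControl.1 as well (all genes 210 higher and 179 lower of 13462).

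Within a batch, siFOXA1.1 was compared with the mean of the 2 controls of the same number, on log2(CPM + 0.5). In RT112 the median over the 50 genes was 1.32 in batch 1 and 1.26 in batch 2, with 41 and 45 genes above 0. In SCaBER it was 1.22 and 1.76, with 45 and 50 above 0. SCaBER siFOXA1.1 replicate 2 exceeded replicate 1 for 45 of the 50 genes, by a median of 0.57 on the log2 scale, while the median over 11997 genes was 0.06. Without that library, 32 of the 50 genes were called in SCaBER, and without replicate 1, 45. In RT112 the corresponding counts were 27 and 28. All 30 genes called higher in RT112 and all 39 in SCaBER were above 0 in both batches. The calls were made from these same libraries, so this is no separate evidence for them. The share of all genes above 0 within a batch was not counted. Leaving out siFOXA1.1 replicate 2 ended the calls of GBP4, HERC5, HERC6, RTP4, UBA7 and UBE2L6 in RT112 and of IFI27, IFI35, LGALS3BP, SAMD9, TRAFD1, TRIM5 and UBA7 in SCaBER, and leaving out replicate 1 ended those of HERC6, IFITM2 and PARP12 in RT112 and TRIM14 in SCaBER. Leaving out 1 control library ended those of GBP4, HERC5, HERC6 and PARP12 in RT112 and of SAMD9, TRIM5, TRIM14 and UBA7 in SCaBER.

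**Figure D5:**
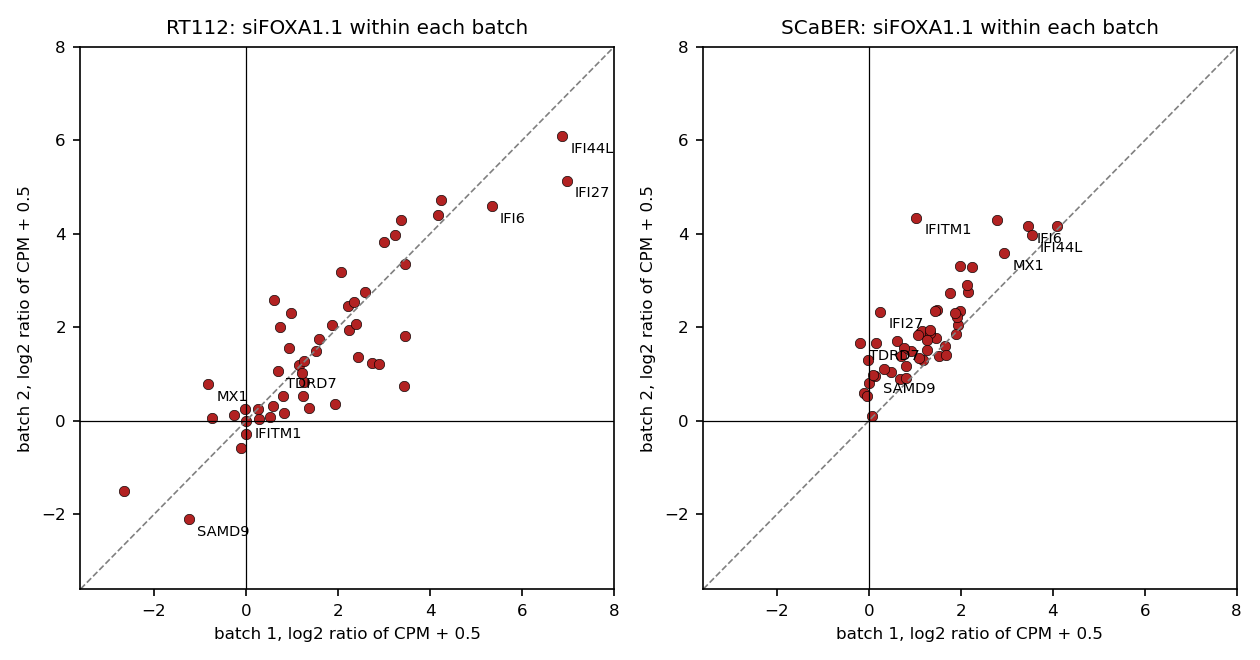
Log2 ratio of CPM + 0.5 between siFOXA1.1 and the mean of the 2 controls of the same batch, batch 1 (horizontal) against batch 2 (vertical), for the 50 genes in RT112 (left) and SCaBER (right). In RT112 the points scatter around the dashed line of equal ratios, and in SCaBER most lie above it.

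Other genes of the pathway were counted from lists of their own. Among 21 genes of interferon signalling (receptors, kinases, STATs, IRFs and feedback inhibitors), 8 of the 19 tested were called higher and 1 lower in RT112 with siFOXA1.1, and 4 of the 18 tested higher and none lower in SCaBER (all genes 14.0%, 15.1%, 3.8% and 4.07%), with median log2 fold changes of 0.49 and 0.43 over those tested, where all genes tested had -0.02 and 0.01. STAT2 rose by 1.74 ± 0.31 (adjusted p = 2.39e-04) in RT112 and 2.52 ± 0.30 (adjusted p = 1.06e-04) in SCaBER. USP18, which removes ISG15 from proteins and damps the receptor, rose by 2.17 ± 0.49 (adjusted p = 0.00218) and 3.41 ± 0.45 (adjusted p = 2.68e-04). IRF9 was called in RT112 (4.26 ± 0.70, adjusted p = 1.01e-04) and IRF2, a repressor of the response, in SCaBER (0.86 ± 0.24, adjusted p = 0.0416).

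Among 17 sensors of foreign nucleic acid and OAS enzymes, 8 of the 16 tested were called higher and 1 lower in RT112, and 10 of 17 higher in SCaBER (all genes 14.0%, 15.1% and 3.8%). OAS2, given below, passed the filter on low counts in RT112 only through its siFOXA1.1 libraries. How many other genes of these pathway lists did so was not counted. IFIH1 (MDA5), a sensor of long double-stranded RNA, rose by 2.91 ± 0.45 (adjusted p = 5.35e-05) in RT112 and 2.02 ± 0.22 (adjusted p = 5.51e-05) in SCaBER, DDX58 (RIG-I), which senses short double-stranded RNA, by 2.44 ± 0.43 (adjusted p = 2.03e-04) in RT112, and DHX58 (LGP2), their regulator, by 2.50 ± 0.88 (adjusted p = 0.0387) in RT112. ZBP1, a sensor of Z-form nucleic acid, rose by 4.39 ± 1.16 (adjusted p = 0.0317) in SCaBER and OAS1 by 2.98 ± 0.32 (adjusted p = 3.74e-05) in SCaBER. OAS2, which makes the activator of RNase L, had 1, 0, 0 and 0 counts in the siControl libraries, 186 and 168 under siFOXA1.1 and 0 and 6 under siFOXA1.2 in RT112 and rose by 3.10 ± 0.22 (adjusted p = 1.28e-06) in SCaBER. Of 14 interferon genes, 13 in RT112 and 12 in SCaBER never passed 3 counts in any library, and none was called. IFNL1, a type III interferon, had 1, 0, 0 and 0 counts in the siControl libraries, 19 and 0 under siFOXA1.1 and 0 and 0 under siFOXA1.2 in RT112. In SCaBER it had 1, 26, 14 and 0 counts in the siControl libraries, 27 and 75 under siFOXA1.1 and 0 and 16 under siFOXA1.2.

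Lists at the edge of the pathway were mostly too low to test in RT112. Of 15 genes of MHC class I antigen presentation, 1 was called higher in RT112 and 1 in SCaBER, NLRC5, an activator of class I genes, in both cases (3.54 ± 1.26, adjusted p = 0.0407 and 1.21 ± 0.28, adjusted p = 0.0137), with 8 and 3 too low to test. These are 1 of 7 and 1 of 12 genes tested, where all genes gave 14.0% and 3.8% higher. Of 8 genes that respond mainly to interferon gamma, none was called in RT112, where 7 were too low to test, and 1 of the 6 tested was called higher in SCaBER, the GTPase GBP1 (1.32 ± 0.16, adjusted p = 1.45e-04). A difference in this share between the effector genes and these lists was not tested.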

How the data were processed

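The authors trimmed the 3′ RNA sequencing reads with TrimGalore 0.6.2, aligned them with STAR 2.6.1a to hg38 with GENCODE 29, and deposited raw counts per gene and TPM, which the counts and TPM used here are. The build, tools and siRNA dose are those of the labels and the submitters' processing notes, while the study's methods name another build and give the siRNA amount in another unit. Strand use in counting was not given in the sources used here. Members and lists were chosen with earlier results of these data known. Counts were fitted per line with edgeR 4.0.16 (R 4.3.3; TMM, filterByExpr with a minimum count of 10, quasi-likelihood test, 1 mean per siRNA, Benjamini-Hochberg adjustment over all genes tested), with a threshold of 0.05 on the adjusted p. The difference between lines used all 16 libraries, and the baseline the 8 siControl libraries. Alternatives were other size factors or filters, no filter, DESeq2 1.42.0, limma 3.58.1 on log2(TPM + 1), each control alone, each library left out, and the replicate number as a block. The labels tie that number to an experiment batch, which is the source of the pairing. Deviations of same-numbered libraries from their group means correlated across genes at -0.02 to 0.01 in RT112 and 0.01 to 0.16 in SCaBER. Total counts of 4528513 to 7604581 per library make 3 counts 0.394 to 0.662 CPM. Replicates differed by more than counting noise (chi-square per degree of freedom 8.79 to 40.1). Fits were tested on simulated counts. Values in every library were given for members among the 8 largest non-overlapping calls of a line, those called lower or between controls, the 5 highest in TPM at baseline and the 8 largest differences between lines, others by the 4 controls' range and by choice after their values were seen. Genes of other lists were named when among the 4 largest called changes of their pathway list, and 1 such gene is not reported here. Of the cell type marker lists sums are given, with FOXA1 and the markers that the sums or zeros turn on. Promoters came from RefSeq (GRCh38.p14).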

Additional observations from a re-analysis of the deposited data

Results flagged for a closer look

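The controls held 6 values that stood apart from the other 3 of their group by Dixon's test. In RT112 they were all in siControl.2 replicate 2, with RTP4 at 1.67 CPM, OASL at 0.417 CPM and IFI44 at 0.139 CPM. In SCaBER they were IFI6 at 225 CPM in siControl.1 replicate 1, and ISG20 at 33.0 CPM and IFI27 at 119 CPM in siControl.1 replicate 2. The 3 genes flagged in RT112 had 0 counts in the other 3 control libraries, so any count there stands apart. In all, 98 groups of 4 libraries were examined, and chance flags about 1 in 20 groups.

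The log2 fold change under siFOXA1.1 differed between the lines for 14 genes (edgeR interaction test, adjusted p under 0.05), given as RT112 minus SCaBER. It was larger in RT112 for IFIT3 by 2.50, RSAD2 by 2.37, DDX60 by 2.22, EPSTI1 by 2.20, IFIT1 by 1.91, IFI6 by 1.35 and IFITM3 by 0.97. It was -3.67 for TRIM5, -2.85 for MX1, -2.14 for SAMD9 and -1.87 for GBP2. The fit gave 9.15 for IFI27, 6.97 for IFI44 and 3.69 for IFI44L, which rest on RT112 controls at or near 0, depend on the fit's prior and are no bound on their size. Under all alternatives run, 4 of the 14 calls were kept, those of IFIT3, GBP2, SAMD9 and IFI44.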

How the results depend on the processing

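The counts of genes called with siFOXA1.1 ranged from 27 to 32 (31 as reported) in RT112 and from 29 to 45 (39 as reported) in SCaBER over all alternatives, and 22 of 31 and 27 of 39 single calls were kept in every one. One direction turned: IFI27 in SCaBER was -0.045 without siFOXA1.1 replicate 2 and 2.76 without replicate 1. For siFOXA1.2 against 0 calls in each line, no filter gave 3 in RT112 and 3 in SCaBER, DESeq2 2 and 2, the replicate block 3 and 1, and siControl.2 alone 2 in RT112. Between the controls, RT112 (1 call) gave 4 with no filter, 3 with DESeq2, 0 with limma on TPM and 4 with the replicate block, and SCaBER (0 calls) gave 4, 4, 0 and 1. The pooled comparison (0 calls) gave 6 in RT112 and 26 in SCaBER with no filter, and 1 in each with DESeq2. The difference between lines gave 14 calls, 10 larger in RT112 and 4 smaller. It gave 8 with limma on TPM (2 and 6), 8 with siControl.2 alone (5 and 3) and 21 with the replicate block (15 and 6). With the block, siFOXA1.1 gave 30 calls in RT112 and 41 in SCaBER, siFOXA1.1 against siFOXA1.2 gave 28 and 37 (DDX60 gained in SCaBER), and the baseline 37. Beyond these gains, the block changed no call but HERC5 in RT112. Leaving out 1 library gave 27 to 31 calls (RT112) and 32 to 45 (SCaBER) for siFOXA1.1, 0 to 3 in either line for siFOXA1.2, 22 to 28 and 26 to 44 between the FOXA1 siRNAs, 2 to 5 and 0 to 9 between controls, 0 and 0 pooled, 15 to 20 between lines and 33 to 36 at baseline. In SCaBER, 9 calls between controls and 3 for siFOXA1.2 came without siFOXA1.1 replicate 1, and 7 and 2 without replicate 2. A lone library is then assumed to vary like the other groups. The ISRE core with a C after it lay in 21 of the 42 genes with a promoter and in 0.795% of windows. The median of all genes shifted by -0.27 in RT112 with siFOXA1.1 on log2(TPM + 1), by -0.14 on library totals, by -0.21 between lines and by -0.32 at baseline on log2(TPM + 1). With 2 libraries a siRNA, low genes are limited by depth. The causes of these changes were not tested.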
